A study of Homo sapiens with 6 samples.

Results

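Expression of 10 genes of the Notch pathway was measured in Caki2 cells that carried either an empty vector or a PBRM1 construct. The 10 genes, NOTCH1, NOTCH2, NOTCH3, JAG1, JAG2, HES1, HEY1, LFNG, MAML2 and NUMB, were taken by symbol from the 25369 genes of the RNA-Seq tables, and all 10 were found there. Caki2 is a human cell line of clear cell renal cell carcinoma (ccRCC) that lacks PBRM1 protein. PBRM1 is the subunit that gives its name to the PBAF chromatin remodeling complex. Caki2+Vector cells (3 samples, A, B and C) carried an empty doxycycline-inducible lentiviral vector, and Caki2+PBRM1 cells (3 samples, A, B and C) carried that vector bearing PBRM1. Doxycycline was given to both lines (2 µg/mL, and by the methods of the study for 72 h or longer), so both groups shared the vector, the drug and the medium. They were stable lines obtained by drug selection, each group being replicates of 1 line, and the added PBRM1 came from an introduced, inducible construct beside the cells' own PBRM1 gene.

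Notch receptors are transmembrane proteins that are switched on by ligands of the Jagged and Delta-like families on a neighboring cell. Ligand binding exposes the receptor to cleavage by an ADAM protease and then by γ-secretase, and the released intracellular domain joins the DNA-binding protein RBPJ and a Mastermind-like coactivator to activate target genes such as those of the HES and HEY families. In the kidney, Notch signaling takes part in the patterning of nephron segments.

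Each library held between 7312955 and 10835355 gene-assigned reads, and values below are normalized counts (reads divided by a size factor of the sample, from 0.834 to 1.19) unless a level per kilobase of transcript is named. PBRM1 counts, in which the cells' own and the introduced transcript are not separated, ranged from 182 to 195 in the Caki2+Vector libraries and from 2432 to 2682 in the others, which matches the labels. Caki2+Vector A stood apart from the other libraries. Chi-square per degree of freedom, which is 1 under sampling noise alone, was 2.84 and 3.09 between it and Caki2+Vector C and B, and 1.19 to 1.34 in the other pairs of replicates. Its log2 values differed from the mean of B and C by a median of -0.15 over the 3040 tested genes with the highest GC content and by a median of 0.08 over the 3040 with the lowest. Among the 10 Notch genes, its difference from that mean was -0.30 for NOTCH1, -0.27 for NOTCH3, -0.26 for JAG2, -0.35 for HES1 and 0.30 for HEY1, and smaller for the others. The GC content of the transcripts was 63.5% for NOTCH1, 63.1% for NOTCH3, 64.1% for JAG2, 49.97% for HES1 and 46.7% for HEY1. LFNG had a GC content of 63.1% and a difference of -0.07, and the part of GC content in these differences was not tested. Changes of NOTCH1, NOTCH3, JAG2, HES1 and HEY1 are therefore given with and without Caki2+Vector A. All 10 markers of renal epithelium on a list that included PAX8 and CDH16 had a mean of at least 10 normalized counts. The 6 endothelial markers summed to between 0.947 and 6.22 normalized counts per sample, with CDH5, TEK and ERG at 0 in all 6 samples. Of 6 fibroblast or smooth muscle markers, COL1A1, PDGFRB and ACTA2 were expressed, while COL1A2, LUM and DCN were at 1.89 normalized counts or less in every sample. The list summed to between 223 and 248 without PBRM1 and between 228 and 257 with it. The 5 leukocyte markers summed to 179.9 to 229.6 and 189.6 to 202 with almost all counts from ITGAM, while CD3E was at 0 in every sample.

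Of the 10 Notch genes, 6 were upregulated in Caki2+PBRM1 and 0 were downregulated at an adjusted p under 0.05 (limma on log2(normalized count + 1), Benjamini-Hochberg over all 13303 tested genes). The upregulated genes were the receptors NOTCH1 and NOTCH2, the ligand JAG1, the glycosyltransferase LFNG, the coactivator MAML2 and the target HEY1. Among all tested genes, 29.2% were called, 16.2% higher and 13.0% lower. The 10 genes were chosen with earlier results of these data known, so their share is set beside this background as a description. At an unadjusted p under 0.05, NOTCH3 also had a lower and HES1 a higher value in Caki2+PBRM1. The median log2 fold change of the 10 genes was 0.35, beside a median of -0.004 over all tested genes. The count of upregulated genes was 6 with edgeR and 5 with DESeq2 on recovered whole reads, where HEY1 was lost, beside 16.5% and 11.2% of all genes called higher (30.3% and 19.2% in either direction, and 13.8% and 7.95% lower). Without Caki2+Vector A, 6 were upregulated and NOTCH3 was downregulated, beside 16.9% and 14.4% of all genes (31.3% in either direction). In bulk RNA, a change in the number of cells that express a gene cannot be told apart from a change in RNA per cell.

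**Figure D1:**
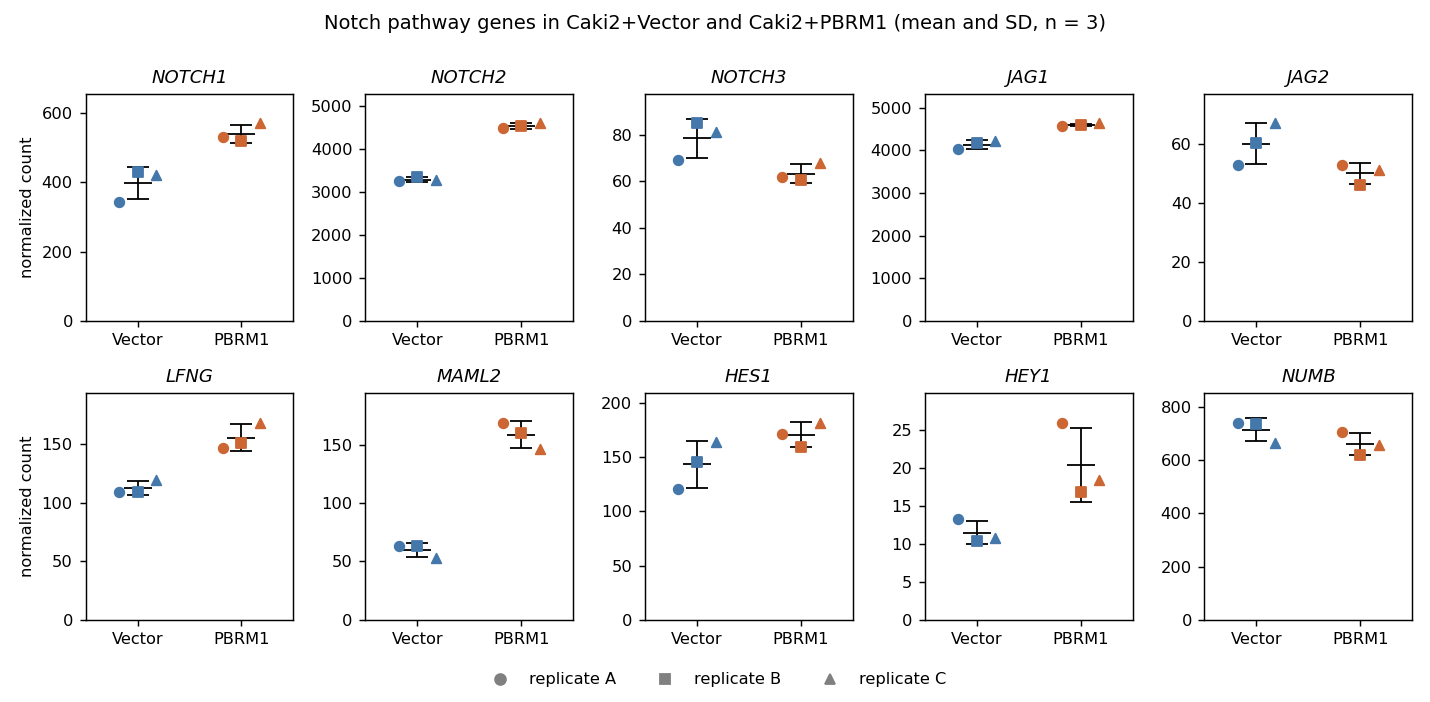
Normalized counts of the 10 Notch genes (vertical axes, each from 0) in the 3 Caki2+Vector and 3 Caki2+PBRM1 samples, with symbols for replicates A, B and C and black bars for mean and SD. NOTCH1, NOTCH2, JAG1, LFNG, MAML2 and HEY1 are higher in every Caki2+PBRM1 sample, NOTCH3 is lower in every one, and JAG2, HES1 and NUMB overlap between the groups.

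NOTCH2 (ENSG00000134250, chromosome 1, 120454176 to 120643366, minus strand, GRCh37 here and below) had the highest level per kilobase of the receptors. It had 3251, 3348 and 3272 normalized counts in Caki2+Vector A, B and C and 4486, 4538 and 4604 in Caki2+PBRM1 A, B and C. The groups did not overlap, and the spread within each was small beside the distance between them. The means were 3290.4 ± 51.2 and 4543 ± 59.1 (SD, n = 3), a log2 fold change of 0.47 (SE 0.0357, 95% interval 0.39 to 0.54, adjusted p = 1.99e-11 from limma). NOTCH2NL, a partial copy of NOTCH2 that is nearly identical to its first exons, had a log2 fold change of 0.16 (adjusted p = 0.111 from limma). How reads that fit both genes were assigned was not given in the sources used here, so part of the NOTCH2 value is uncertain.

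NOTCH1 (ENSG00000148400, chromosome 9, 139388885 to 139440500, minus strand) was counted at 345, 429 and 421 in Caki2+Vector and at 531, 521 and 571 in Caki2+PBRM1. All Caki2+PBRM1 samples were higher, and Caki2+Vector A was the lowest library. NOTCH1 rose by 0.45 on the log2 scale (SE 0.0738, 95% interval 0.30 to 0.60, limma adjusted p = 3.27e-05), and by 0.35 without Caki2+Vector A (adjusted p = 6.08e-06). The ratio of NOTCH2 to NOTCH1 counts within a library overlapped between the groups, from 7.78 to 9.43 in the control and from 8.07 to 8.71 with PBRM1. Such ratios do not depend on scaling, were chosen after the values were seen and carry no test.

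NOTCH3 (ENSG00000074181, chromosome 19, 15269849 to 15311806, minus strand), a receptor best known from vascular smooth muscle, had lower values with PBRM1. It was counted at 69.1, 85.0 and 81.5 in Caki2+Vector and at 61.7, 60.4 and 68.0 in Caki2+PBRM1. The groups were next to each other without overlap, with Caki2+Vector A nearest to the Caki2+PBRM1 samples. The log2 fold change of -0.30 (SE 0.141, 95% interval -0.59 to -0.01) had an adjusted p of 0.111 (limma). Without Caki2+Vector A it was -0.39 with an adjusted p of 0.0466, and with curves for GC content and transcript length removed it was -0.39 with an adjusted p of 0.0216. Within a library, the ratio of NOTCH2 to NOTCH3 counts ran from 39.4 to 47.0 in the control and from 67.7 to 75.1 with PBRM1.

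JAG1 (ENSG00000101384, chromosome 20, 10618332 to 10654647, minus strand), a ligand of Notch receptors, had the highest level per kilobase of the 10 genes. Its normalized counts were 4024, 4169 and 4221 in Caki2+Vector and 4576, 4594 and 4637 in Caki2+PBRM1. Every Caki2+PBRM1 sample was above every Caki2+Vector sample, although the distance was small. JAG1 rose by 0.15 on the log2 scale (SE 0.0353, 95% interval 0.08 to 0.23, adjusted p = 0.00129 from limma), and by 0.10 with library-total scaling (adjusted p = 0.0315). JAG2 (ENSG00000184916, chromosome 14, 105607319 to 105635161, minus strand), the other Jagged ligand, had 53.0, 60.5 and 67.1 in Caki2+Vector and 53.1, 46.2 and 51.2 in Caki2+PBRM1, with overlap between the groups. Its log2 fold change was -0.25 (95% interval -0.58 to 0.07, adjusted p = 0.24 from limma). Without Caki2+Vector A it was -0.34 (adjusted p = 0.134 from limma). Counts of JAG1 were 62.9 to 75.9 times those of JAG2 in the control and 86.2 to 99.4 times with PBRM1.

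LFNG (ENSG00000106003, chromosome 7, 2552163 to 2568811, plus strand) encodes Lunatic Fringe, which adds a sugar to O-fucose on Notch receptors and thereby alters which ligands they answer to. It had 109, 109.6 and 119.9 normalized counts in Caki2+Vector and 147, 151 and 169 in Caki2+PBRM1, without overlap. LFNG rose by 0.46 on the log2 scale (SE 0.106, 95% interval 0.24 to 0.68, adjusted p = 0.00125 from limma). Of the other Fringe genes, MFNG was at 0.42 (adjusted p = 0.148) and RFNG at 0.09 (adjusted p = 0.584) in log2 fold change. The ratio of LFNG to RFNG ran from 0.637 to 0.799 in the control and from 0.850 to 1.04 with PBRM1.

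MAML2 (ENSG00000184384, chromosome 11, 95709762 to 96076359, minus strand), a Mastermind-like coactivator, had the largest change of the 10 genes. It was counted at 63.4, 63.3 and 52.7 in Caki2+Vector and at 169, 160.0 and 146 in Caki2+PBRM1. The lowest Caki2+PBRM1 sample was far above the highest Caki2+Vector sample. MAML2 rose by 1.39 on the log2 scale (SE 0.124, 95% interval 1.14 to 1.65, adjusted p = 4.07e-10 from limma), or 2.62-fold, and the value lay between 1.31 and 1.45 over all alternatives tried. A counted microRNA gene on the opposite strand, MIR1260B, overlaps 89 of its 7121 transcript bases. Annotated genes outside the 25369 counted overlap MAML2 (549 bases, opposite strand), JAG1 (306, opposite strand), JAG2 (469, same strand) and NUMB (217, same strand). MAML3, its paralog outside the 10 genes, changed more, with 37.9, 27.4 and 30.0 normalized counts in Caki2+Vector and 148, 124 and 114 in Caki2+PBRM1 (log2 fold change 1.99, SE 0.156, adjusted p = 3e-11 from limma). MAML1, the third paralog, had 634, 650.0 and 646 against 641, 602 and 602, a log2 fold change of -0.07 (95% interval -0.18 to 0.05, adjusted p = 0.411 from limma). The 3 Mastermind-like genes thus did not move alike. In each library the ratio of MAML2 to MAML1 was 0.0816 to 0.10 without PBRM1 and 0.243 to 0.266 with it, and that of MAML3 to MAML1 was 0.0422 to 0.0597 and 0.190 to 0.231.

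The targets HES1 and HEY1 encode transcriptional repressors whose genes are activated by the Notch intracellular domain with RBPJ. HES1 (ENSG00000114315, chromosome 3, 193853937 to 193856521, plus strand) had 121, 145 and 164 normalized counts in Caki2+Vector and 171, 159 and 182 in Caki2+PBRM1. The groups overlapped, since Caki2+Vector C exceeded Caki2+PBRM1 B, and Caki2+Vector A was the lowest. The log2 fold change of 0.26 (SE 0.108, 95% interval 0.04 to 0.48) had an adjusted p of 0.0728 (limma). Without Caki2+Vector A the value was 0.14 (adjusted p = 0.324), and without Caki2+Vector C it was 0.36 (adjusted p = 0.0172). With the GC and length curves removed it was 0.30 (adjusted p = 0.0141).

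Sequences before the annotated start of HES1, LFNG, NOTCH2 and MAML2 are shown because HES1 is a known RBPJ target and because LFNG, NOTCH2 and MAML2 were upregulated. Each runs 5′ to 3′ over the 250 bases before the start of the gene's MANE Select transcript on GRCh37, at chr3:193853687-193853936 (plus strand), chr7:2559158-2559407 (plus strand), chr1:120612277-120612526 (minus strand) and chr11:96076360-96076609 (minus strand). Capitals mark the core letters bound by RBPJ, TGGGAA, or their reverse complement TTCCCA.
HES1: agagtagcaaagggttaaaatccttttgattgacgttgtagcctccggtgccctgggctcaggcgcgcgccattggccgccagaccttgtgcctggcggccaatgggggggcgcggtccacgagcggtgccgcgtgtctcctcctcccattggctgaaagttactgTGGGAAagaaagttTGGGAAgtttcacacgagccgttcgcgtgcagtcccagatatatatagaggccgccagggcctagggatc
LFNG: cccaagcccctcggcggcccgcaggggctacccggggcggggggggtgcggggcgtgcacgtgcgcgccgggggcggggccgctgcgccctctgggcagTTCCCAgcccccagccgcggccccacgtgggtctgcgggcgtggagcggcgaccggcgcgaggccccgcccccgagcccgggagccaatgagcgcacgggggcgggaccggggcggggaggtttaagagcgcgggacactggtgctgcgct
NOTCH2: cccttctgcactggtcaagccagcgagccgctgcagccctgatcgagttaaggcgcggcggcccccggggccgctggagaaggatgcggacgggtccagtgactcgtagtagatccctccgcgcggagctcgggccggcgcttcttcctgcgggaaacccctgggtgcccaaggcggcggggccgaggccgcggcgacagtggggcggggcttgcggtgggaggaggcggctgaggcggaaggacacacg
MAML2: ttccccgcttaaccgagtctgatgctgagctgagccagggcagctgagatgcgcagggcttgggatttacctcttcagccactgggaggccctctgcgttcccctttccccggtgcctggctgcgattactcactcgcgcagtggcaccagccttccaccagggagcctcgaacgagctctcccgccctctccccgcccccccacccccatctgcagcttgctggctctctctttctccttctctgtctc
The HES1 window held 2 matches, starting 84 and 70 bases before the start. The window of HEY1, which is not shown, held 2 as well, at 66 and 49 bases before the start, and the LFNG window held 1 in reverse orientation, at 151 bases. The windows of the other 7 genes, NOTCH2 and MAML2 among them, held none. Of 12160 tested genes with an annotated start, 18.5% had at least 1 match and 2.34% had at least 2. A match is a stretch of letters and not a measured binding site.

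HEY1 (ENSG00000164683, chromosome 8, 80674606 to 80680092, minus strand) had the fewest reads of the 10 genes, with 14, 11 and 9 reads in Caki2+Vector A, B and C and 24, 19 and 22 in Caki2+PBRM1 A, B and C. Normalized, these were 13.3, 10.4 and 10.8 in Caki2+Vector A, B and C and 26.0, 16.9 and 18.5 in Caki2+PBRM1 A, B and C. The groups did not overlap, and Caki2+PBRM1 A was highest. HEY1 rose by 0.77 on the log2 scale (SE 0.28, 95% interval 0.19 to 1.34, adjusted p = 0.039 from limma). Without Caki2+Vector A the rise was 0.86 (adjusted p = 0.0282 from limma). The call was lost without Caki2+Vector B (adjusted p = 0.0974), Caki2+Vector C (0.0736), Caki2+PBRM1 A (0.197) or Caki2+PBRM1 C (0.0773), with DESeq2 (0.182) and without the filter on low counts (0.0507).

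NUMB (ENSG00000133961, chromosome 14, 73741815 to 73925323, minus strand), an endocytic adaptor that antagonizes Notch, had 740.3, 734 and 663 normalized counts in Caki2+Vector and 703, 619 and 656 in Caki2+PBRM1. The groups overlapped. The log2 fold change was -0.11 (95% interval -0.23 to 0.01, adjusted p = 0.168 from limma). Without Caki2+PBRM1 B it was -0.07 (adjusted p = 0.534). It passed under scaling by library totals and under no other alternative (-0.17, adjusted p = 0.0317), a scaling under which the median of all tested genes moved from -0.004 to -0.06.

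**Figure D2:**
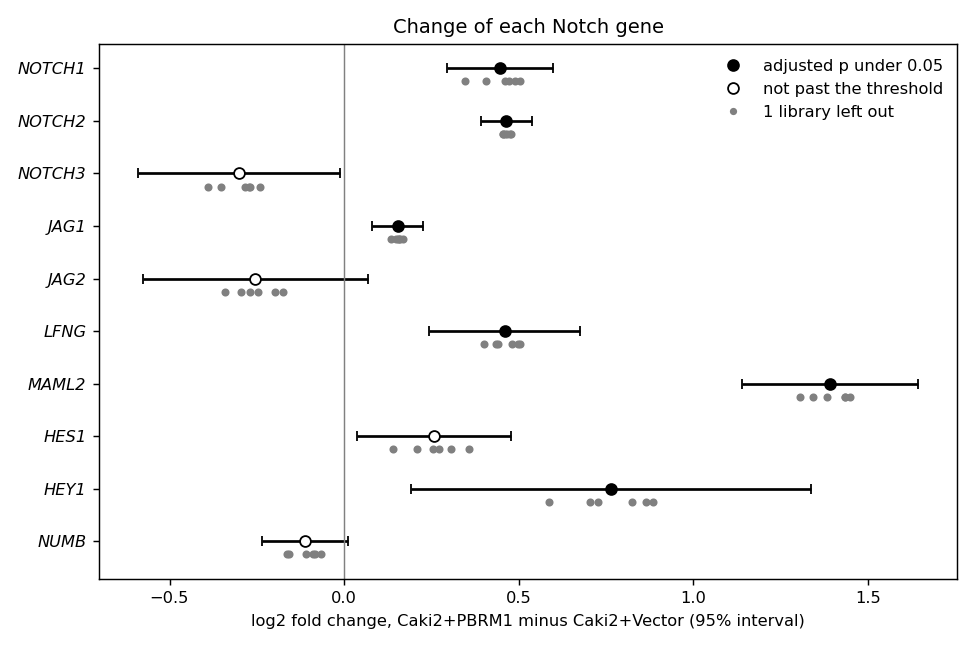
Log2 fold changes of the 10 Notch genes between Caki2+PBRM1 and Caki2+Vector with 95% intervals from limma (horizontal axis), with filled circles for genes past an adjusted p of 0.05 and gray points for fits that left out 1 library. MAML2 stands highest at 1.39, NOTCH1, NOTCH2 and LFNG lie between 0.45 and 0.47, and HEY1 has the widest interval.

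The 3 samples of each group separated for 7 of the 10 genes, 6 with all Caki2+PBRM1 samples higher and 1 (NOTCH3) with all lower, beside 22.1% and 19.6% of all tested genes (41.7% in either direction). For each of these 7 genes an exact permutation test (two-sided) gave p = 0.1, the smallest that 3 against 3 allow. The study calls the samples of a group biological replicates, and the sources used here do not say whether they were separate cultures. The p-values therefore set group differences against the spread between these samples only. With 1 line per group, a difference between the lines cannot be told apart from a difference due to PBRM1.

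Levels of different genes were compared as normalized counts per kilobase of the MANE Select transcript. In Caki2+Vector the order was JAG1 (697 ± 17.2, SD, n = 3), NOTCH2 (288 ± 4.48), NUMB (198 ± 11.9), HES1 (91.2 ± 13.7), LFNG (46.1 ± 2.51), NOTCH1 (41.6 ± 4.86), JAG2 (10.4 ± 1.22), NOTCH3 (9.05 ± 0.963), MAML2 (8.40 ± 0.862) and HEY1 (5.22 ± 0.706). The sample values of LFNG and NOTCH1 overlapped, and those of NOTCH3 overlapped with both JAG2 and MAML2. Every JAG2 value was above every MAML2 value. In Caki2+PBRM1 the first 6 places were the same, and MAML2 moved to the seventh place with 22.2 ± 1.62 per kilobase, above HEY1 (9.31 ± 2.22), JAG2 (8.69 ± 0.614) and NOTCH3 (7.30 ± 0.465). There LFNG and NOTCH1 were at 63.7 ± 4.67 and 56.5 ± 2.76. Every LFNG value (60.3 to 69.0) was above every NOTCH1 value (54.4 to 59.6). HEY1 values overlapped with those of both JAG2 and NOTCH3.

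Among receptors, NOTCH2 held 84.1% to 86.5% of the summed level per kilobase in the control libraries and 85.6% to 86.5% with PBRM1. NOTCH3 held 2.42% to 2.81% and 1.52% to 1.66%, and NOTCH4 at most 0.261%. JAG1 held 94.5% to 96.5% of the ligand level in all 6 samples, so NOTCH2 and JAG1 made up most of the receptor and ligand RNA in both groups. The largest shift in makeup was in the Mastermind-like family, where MAML1 held 88.4% to 90.5% in the control libraries and 71.1% to 73.8% with PBRM1. MAML2 held 5.96% to 7.14% and 14.5% to 15.5%, and MAML3 held 3.18% to 4.43% and 11.8% to 13.8%.

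**Figure D3:**
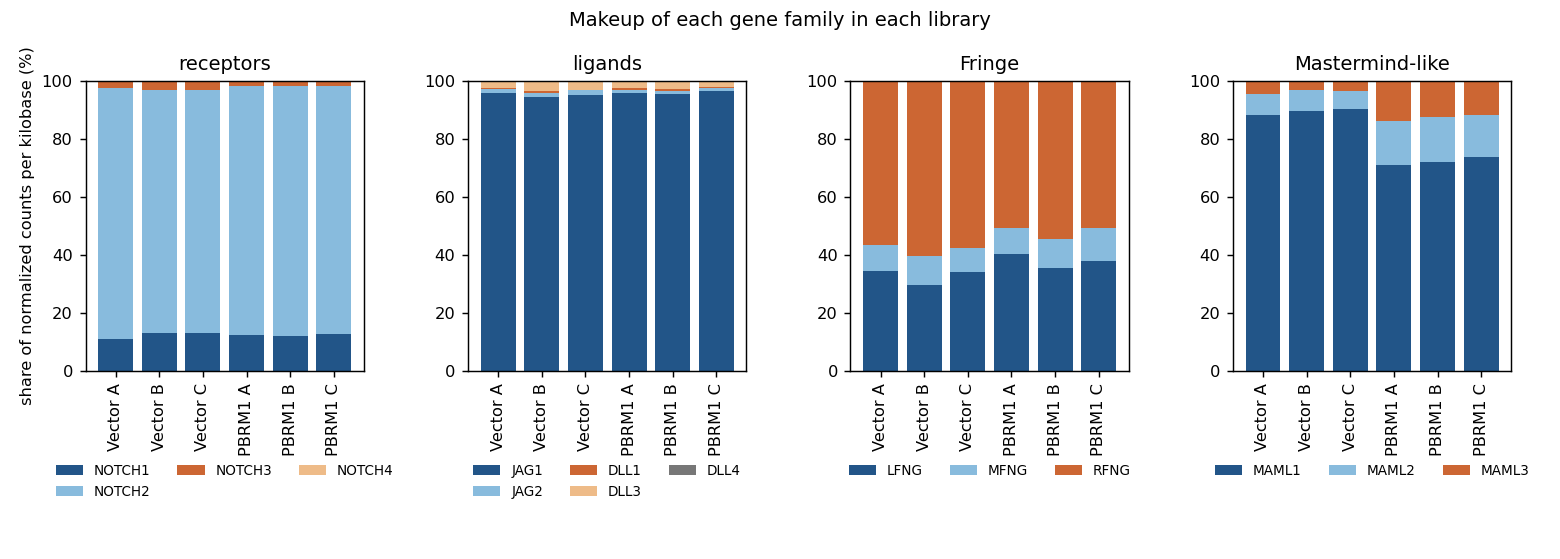
Share of the normalized counts per kilobase held by each gene (vertical axis, percent) among receptors, ligands, Fringe genes and Mastermind-like genes in each of the 6 libraries (bars). NOTCH2 and JAG1 dominate their families in every library, and the MAML1 share lies between 88.4% and 90.5% in the control libraries and between 71.1% and 73.8% with PBRM1.

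Another 55 genes of a wider Notch list were measured as well, and 48 were expressed highly enough to be tested. Of these 48, 9 were upregulated, 3 downregulated and 36 did not pass (16.2% and 13.0% of all tested genes were called higher and lower). Their median log2 fold change was 0.03. Without Caki2+Vector A, 9 rose and 6 fell, beside 16.9% and 14.4% of all tested genes. With library-total scaling 7 rose and 9 fell, where the calls over all genes went from 2152 higher and 1734 lower to 1622 higher and 2775 lower. In the main fit the share called higher was thus close to the background, and 3 of 48 were called lower beside 13.0%. The lower count changed with the setting, as above, and its difference from the background was not tested.

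Of 8 genes of receptor cleavage, 3 were upregulated and 0 were downregulated, beside 16.2% and 13.0% of all tested genes. FURIN, the convertase that processes the receptor precursor, had 445, 508 and 532 normalized counts in Caki2+Vector and 699.7, 726 and 755 in Caki2+PBRM1 (log2 fold change 0.56, SE 0.0637, adjusted p = 6.61e-08 from limma). ADAM10, the protease of the ligand-dependent cut (2523 to 2622 in the control, 2807 to 2842 with PBRM1), rose by a log2 fold change of 0.13 (adjusted p = 0.00794), which was 0.08 with an adjusted p of 0.116 under library-total scaling and 0.09 with an adjusted p of 0.0259 with the GC and length curves removed. NCSTN, which encodes a substrate-binding subunit of γ-secretase, rose by 0.28 on the log2 scale (adjusted p = 2e-05), with 1201 to 1228 normalized counts against 1415 to 1508 and no overlap. ADAM17, PSEN2, APH1A, APH1B and PSENEN had log2 fold changes from -0.15 (PSEN2) to 0.09 (PSENEN) and did not pass.

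Of 3 other canonical ligands, 2 were tested and 1, DLL1, was upregulated, beside 16.2% of all tested genes called higher. DLL1 had a low level, with 7.57, 14.2 and 7.19 normalized counts against 22.7, 23.1 and 14.3 (log2 fold change 1.01, SE 0.313, adjusted p = 0.0147 from limma). Of the control samples only Caki2+Vector B reached 10 normalized counts. DLL1 thus passed the filter only through the Caki2+PBRM1 samples, where it was high, and was not tested when every sample had to reach 10. The highest Caki2+Vector and the lowest Caki2+PBRM1 value nearly touched, and the call was lost without Caki2+PBRM1 A (adjusted p = 0.0812) or B (0.0857) and with DESeq2 (0.101). DLL3 had a log2 fold change of -0.21 (adjusted p = 0.451), and DLL4 was below the filter, at 3.79 or less in every sample. The ubiquitin ligase genes MIB2 and NEURL1B, whose products act on ligands, rose by 0.34 (adjusted p = 0.00969) and 0.33 (adjusted p = 0.0381). MIB2 ranged from 164 to 211 in the control and from 209 to 263 with PBRM1, with a small overlap, and NEURL1B from 102 to 106 and from 109.9 to 155, without one. MIB2 lost its call without Caki2+PBRM1 B (0.0513) or C (0.0865). NEURL1B lost it without Caki2+Vector B (0.0961) or C (0.0628) and without Caki2+PBRM1 A (0.264, log2 fold change 0.21) or B (0.103). It also lost it with DESeq2 (0.141) and library-total scaling (0.0765). MIB1 was at -0.10 (adjusted p = 0.149).

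In the nuclear complex, RBPJ had 826, 816 and 873 normalized counts against 881, 835 and 851, a log2 fold change of 0.03 (95% interval -0.08 to 0.13, adjusted p = 0.722 from limma). The acetyltransferase gene EP300 (1515 to 1679.8 against 1774 to 1862) rose by 0.17 (adjusted p = 0.00381), and KAT2A, another acetyltransferase gene, fell by 0.30 on the log2 scale, from 833 ± 15.3 to 676 ± 28.6 (adjusted p = 6.39e-05). Of 7 corepressor genes, NCOR1 (1313 to 1425 against 1227 to 1252) fell by 0.12 on the log2 scale (adjusted p = 0.0441) and the other 6 did not pass. Among all tested genes, 29.2% were called. NCOR1 lost its call without Caki2+Vector B (0.2), without Caki2+PBRM1 A (0.105), B (0.153) or C (0.104), with DESeq2 (0.113) and without the filter (0.065).

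Of 8 further genes listed as targets, 5 were tested and 0 were called, beside 29.2% of all tested genes, and 5 genes are too few to tell apart from that share. Whether each of them responds to Notch in these cells was not tested. In log2 fold change they were HES4 (0.44, adjusted p = 0.137), HES6 (-0.21, adjusted p = 0.536), HEY2 (-0.27, adjusted p = 0.295), HEYL (0.15, adjusted p = 0.76) and NRARP (0.14, adjusted p = 0.69). The intervals of these low genes were wide, for HEY2 from -0.66 to 0.11. HES5 had 0 reads in every library. HES2 and HES7 were below the filter. HES7 ranged from 1.68 to 6.50 over all samples, and HES2 ranged from 5.99 to 10.4 in the control libraries and from 2.67 to 3.36 with PBRM1. Among the genes of receptor turnover, DTX3 had a log2 fold change of 0.61 (adjusted p = 0.0184) and DTX3L fell by 0.24 on the log2 scale (adjusted p = 0.00464). DTX3L ranged from 524 to 602 in the control and from 455 to 494 with PBRM1. DTX3 had 55.9, 35.9 and 31.2 against 53.1, 56.9 and 76.4 and overlapped between the groups, with Caki2+Vector A above Caki2+PBRM1 A, and its value was 0.86 without that library. Its call was lost without Caki2+Vector B (0.083) or C (0.0962), without Caki2+PBRM1 C (0.149) and with DESeq2 (0.0873). The 5 other glycosyltransferase genes on the list, including POFUT1, which adds O-fucose to the receptors, had log2 fold changes from -0.05 to 0.42 and did not pass. Beside the 29.2% called among all tested genes, these 5 are again too few to tell apart from that share. NOTCH4 (1.89 to 5.99), DLK1 and NEURL1 (0 to 0.839) were below the filter, DLK1 with 0 reads in every library, and the non-canonical ligand gene DLK2 was at 0.80 (adjusted p = 0.0607).

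**Figure D4:**
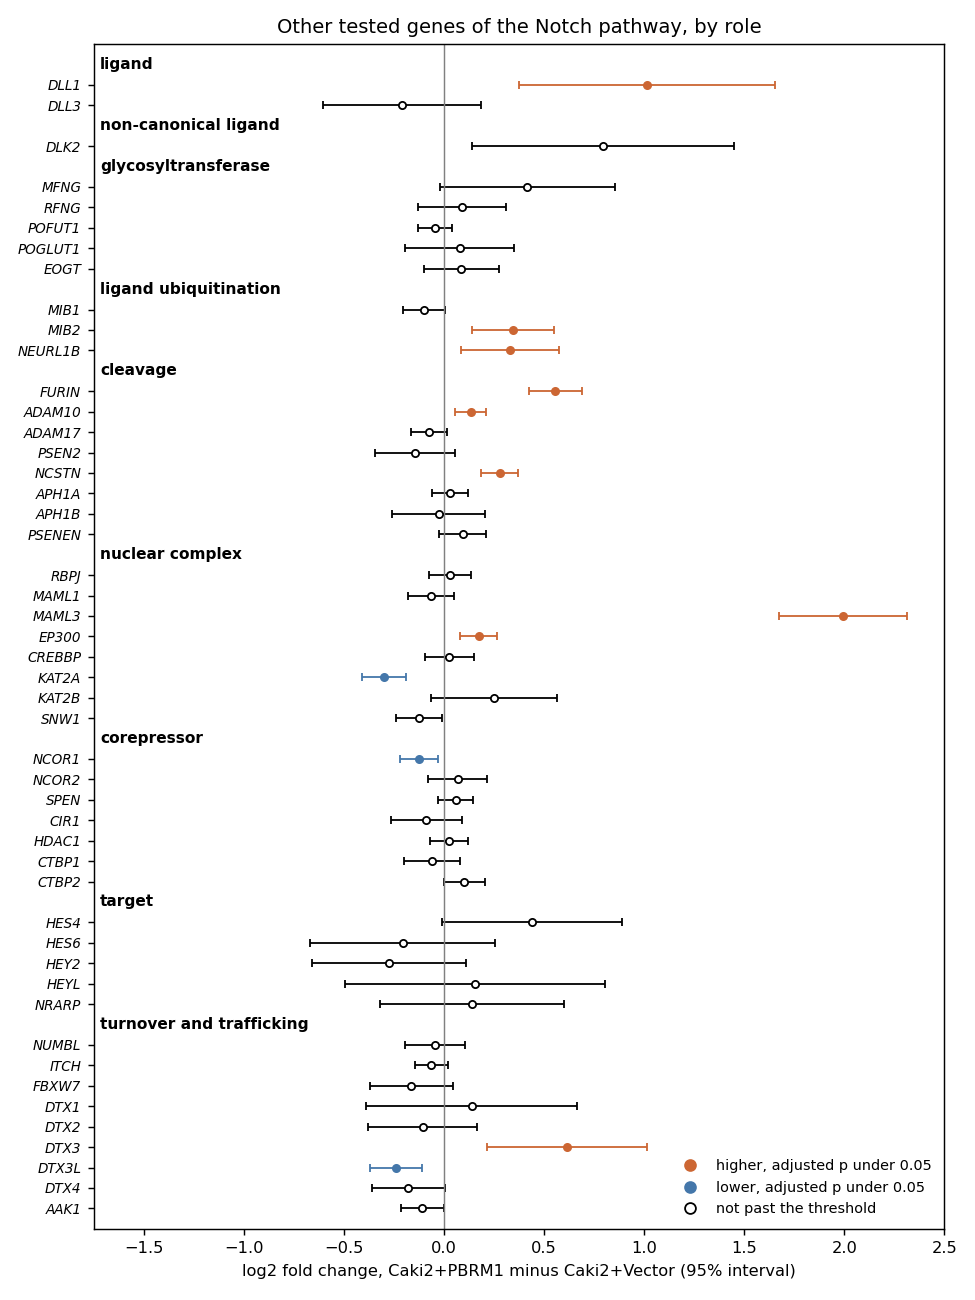
Log2 fold changes with 95% intervals from limma (horizontal axis) of the 48 other tested Notch pathway genes, grouped by role, with orange for higher, blue for lower and open circles for genes not past an adjusted p of 0.05. MAML3 lies farthest from 0 at 1.99, 3 of the 8 cleavage genes are higher (16.2% of all tested genes were), and none of the 5 genes listed as targets is past the threshold (29.2% of all tested genes were).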

How the data were processed

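Poly(A) RNA of 3 Caki2+Vector and 3 Caki2+PBRM1 samples was sequenced. According to the methods, the authors removed adapters, poor reads and rRNA reads, aligned the rest to hg19 with STAR, counted 25369 genes of a UCSC annotation with HTSeq and normalized with DESeq2 (versions not given in the sources used here). The deposited signal per gene is a normalized count, not divided by gene length. In each file 100% of values were whole multiples of 1 step (within 0.05 reads), so whole reads were recovered. A gene was tested when 3 or more samples reached 10 normalized counts (13303 genes), on log2(normalized count + 1), with limma 3.58.1 (trend, robust) in R 4.3.3 and Benjamini-Hochberg adjustment, at an adjusted p under 0.05. This called 3886 genes, beside 4030 by edgeR 4.0.16 (quasi-likelihood, TMM) and 2553 by DESeq2 1.42.0 on the recovered reads. Log2 fold changes had a median SE of 0.0829. Named genes are PBRM1, the 10 Notch genes and every gene of the wider Notch list that passed. A single gene was left out of the list and of all its counts, and is not reported here. Genes below the filter and others of that list were added with their values, and NOTCH2NL was added after its values were seen. The members and lists were chosen with earlier results of these data known. Samples were not paired by replicate letter in the main fit. Coordinates and transcript lengths come from GENCODE v44lift37 on GRCh37 by symbol (91.4% of tested genes, all 10 Notch genes). Alternatives were the count models, library-total scaling, pseudocounts of 0.5 and 4, filters, a replicate block, an adjusted p under 0.01 and each library left out. Per-sample curves against GC content and length (loess, span 0.3) were added after seeing the data. The test was tried on simulated data.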

Additional observations from a re-analysis of the deposited data

How the results depend on the processing

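Of 150 values of the 10 Notch genes under alternatives, 139 kept their direction and their side of the threshold, 6 lost it (HEY1 in each), 5 gained it and 0 changed sign. Of 179 values of the 12 called genes of the wider list, 157 kept theirs, 22 lost it and 0 changed sign. The count of downregulated Notch genes went from 0 to 1 with library-total scaling (NUMB) and with GC and length curves (NOTCH3), and that of the wider list from 3 to 9 and to 7. The upregulated counts went from 6 to 7 (HES1) and from 9 to 11 with the curves, and to 6 and 7 with library-total scaling. With the curves, 2328 genes were called higher and 1986 lower over the 12160 genes of that fit. The cause was not tested. Over all genes, downregulated calls went from 1734 to 2775 with library-total scaling and to 1057 with DESeq2 (2553 calls in all). At an adjusted p under 0.01, 2521 genes were called, 1025 of them lower. Leaving out each library in turn gave 5 to 6 upregulated and 0 to 1 downregulated Notch genes, 5 to 7 called in all, 6 to 9 upregulated and 2 to 6 downregulated genes of the wider list (8 to 15 in all), and 2856 to 4170 calls over all genes, of which 1649 to 2252 were higher and 1207 to 1918 lower. Same-lettered samples of the groups had correlations of their deviations from -0.00767 to 0.0138, and differently lettered samples from -0.0243 to 0.0173. The labels do not say whether same-lettered samples were prepared together, and the main fit did not pair them. With the replicate block 6 Notch genes were called, all higher, and 4107 genes over all. HEY1 rested on 9 to 24 reads per library and DLL1 on 6 to 26, and the part of depth in their lost calls was not tested.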
